A study of Homo sapiens with 20 samples.

Results

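Microexons are the shortest exons that the spliceosome removes or keeps. Here they were taken as skipped exon events with a cassette exon of at most 30 bases and, per library, 10 or more junction reads on average. Of 59847 skipped exon events listed in 3 tables of HepG2 cells, which derive from a human liver cancer, 749 met this rule, with 230 in the table of FUBP1 depletion, 426 in that of U3 depletion and 93 in that of FBL depletion. They came from 413 distinct exons in 365 genes, and 72 of these exons met the rule in every table. Of 321, 494 and 138 events of at most 30 bases listed in these tables, the 230, 426 and 93 reached the read minimum, and all of them were tested, while events of the same exon with different flanking exons share reads. HepG2 cells received siCtrl2 or siFUBP1, an siRNA against the nuclear splicing factor FUBP1, and were harvested after 48 h, with 3 libraries each. GFP ASO or U3 ASO, an antisense oligonucleotide against the small nucleolar RNA U3, was given for 72 h, again with 3 libraries each. The siCtrl input and siFBL input libraries, with 2 each, were the inputs of a FUBP1 immunoprecipitation made 48 h after transfection of a control siRNA or of siFBL, which targets fibrillarin (FBL), the enzyme that C/D box small nucleolar RNAs guide to methylate RNA. All groups are transfected cells of the same line, and each depletion has a control group of its own. The study's methods call the replicates of each group biological.

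An exon is normally recognised through factors that bind across it, and a microexon leaves little room for them, so its recognition leans on the flanking introns. Microexons are best known from neurons, where SRRM4 promotes and PTBP1 represses many of them, while RBFOX proteins act through TGCATG in the following intron. Most keep the reading frame and add a few amino acids at the surface of a protein domain. FUBP1 binds uridine-rich RNA upstream of 3′ splice sites.

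The exons that carried the results are shown first, in capitals, 5′ to 3′ on the strand of the gene (hg38). Those of FLNA and PPP3CB changed most clearly after siFUBP1, that of MTSS2 changed under U3 ASO, those of ROBO1, FERMT2 and ACLY had depleted libraries all below their controls after siFUBP1, and that of AFDN lay in opposite directions in the tables of FUBP1 and U3 depletion.
FLNA, 24 bases, chrX:154357251-154357274, minus strand: TGTCAATCGGAGGTCACGGGCTAG
PPP3CB, 30 bases, chr10:73439872-73439901, minus strand: CCACAGTTGAGGCTATTGAGGCTGAAAAAG
ROBO1, 27 bases, chr3:78647629-78647655, minus strand: TCCCGTCTTTTACCTTCACACCAACAG
FERMT2, 21 bases, chr14:52861014-52861034, minus strand: CCAGGCTATATAAGAGATTTG
ACLY, 30 bases, chr17:41896620-41896649, minus strand: ATTCAGTCCCAAGTCCAAGATCCCTGCAAG
AFDN, 21 bases, chr6:167913403-167913423, plus strand: GAAGTAGACCAGGTTGACCAG
MTSS2, 9 bases, chr16:70679315-70679323, minus strand: AGCTACTTG
All 7 are annotated as coding in GENCODE release 44 and have a length that is a multiple of 3. They add 8 codons to FLNA (exon 30 of the canonical transcript), 10 to PPP3CB (exon 13), 9 to ROBO1 (exon 20), 10 to ACLY (exon 14), 7 to AFDN (exon 16) and 3 to MTSS2 (exon 7), while the exon of FERMT2, with 7 codons, is outside the canonical transcript. The exons of RPS24 and KIAA1841 were also called but are not among the 7. Their lengths of 22 and 29 bases are not multiples of 3.

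The last 30 intron bases before the exon, the window of the 3′ splice site, are given for the called exons, with runs of 3 or more T in capitals.
FLNA, chrX:154357275-154357304: ttctccttgctctctgccctctcacctcag
PPP3CB, chr10:73439902-73439931: TTTTgcatgcctctgctcacttctgtacag
MTSS2, chr16:70679324-70679353: tcctcctctcctcccacatccttcctgtag
RPS24, chr10:78040174-78040203: ctcTTTTTcccttccccgccactgattcag
KIAA1841, chr2:61117327-61117356: tgggccttaatgttgtctacTTTTTTTTag
ROBO1, for comparison, chr3:78647656-78647685: actggTTTataTTTTgTTTTgaTTTTTcag
T made up 36.7% of this window at FLNA, 40% at PPP3CB, 33.3% at MTSS2, 36.7% at RPS24, 53.3% at KIAA1841 and 60% at ROBO1. The called exons thus included windows with no T run at all, at FLNA and MTSS2, and a window with a run of 8, at KIAA1841. The exon of RPS24 (22 bases, chr10:78040204-78040225, plus strand) is exon 5 of the canonical transcript and coding in none of the 5 transcripts that hold it. The exon of KIAA1841 (29 bases, chr2:61117357-61117385, plus strand) is exon 2, noncoding in the canonical transcript and coding in others, and its length is not a multiple of 3.

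Microexons differed from longer cassette exons in features that the length rule did not use. A length divisible by 3 was found for 74.8%, 62.4% and 78.5% of microexon events in the tables of FUBP1, U3 and FBL depletion, against 44.7%, 40.8% and 48.1% of longer events. In the same order, 89.0%, 85.2% and 90.1% of the distinct microexons were coding in at least 1 transcript, about as many as the 86.5%, 85.8% and 85.3% of longer exons. The introns before them were short, with medians of 1863, 1514 and 1286 bases against 2475.5, 2354 and 2147.5 bases for longer exons. T made up a median of 42% of the last 50 intron bases in every table, against 38%, 38% and 36% for longer exons. TTTTT occurred on the sense strand of these 50 bases at 44.5%, 41.7% and 42.9% of microexons, and at 34.6%, 33.1% and 28.6% of longer exons. TGCATG, the RBFOX motif, occurred on the sense strand of the following 200 intron bases at 12.4%, 9.50% and 13.2% of microexons, against 6.40%, 6.23% and 7.64% of longer exons. TGC in the last 20 intron bases, the letters that SRRM4-dependent exons are known for, was about as frequent before microexons (33.0%, 34.3% and 26.4%) as before longer exons (30%, 30.7% and 33.5%). An AG before and a GT after the exon framed 98.2%, 98.4% and 97.8% of microexons. A match is a description of letters and not a binding site, and the tables share many exons.

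The inclusion level of an event is the share of transcripts that keep the exon, from 0 to 1, estimated from reads across the inclusion and skipping junctions after division by the number of read positions of each form. Control levels differed by exon length. For events of 6 to 15 bases the median level was 0.286 in siCtrl2, 0.309 in GFP ASO and 0.0968 in siCtrl input. For 28 to 30 bases it was 0.968, 0.931 and 0.877, and for 31 to 60 bases 0.963, 0.980 and 0.899. The course between was not steady, since siCtrl2 had 0.594 at 16 to 20 bases, 0.248 at 21 to 24 bases and 0.747 at 25 to 27 bases. Over all microexon events the median was 0.755, 0.836 and 0.399. Most microexon events were rarely used or nearly always used. Over all microexon lengths together, partly used ones were more frequent than among longer exons. In siCtrl2, 26.1% of microexon events were below 0.1, 30.9% between 0.1 and 0.9 and 43.0% above 0.9. The same classes held 26.1%, 27.2% and 46.7% in GFP ASO and 32.3%, 40.9% and 26.9% in siCtrl input. The middle class was thus the largest in siCtrl input. For 31 to 60 bases the middle class held 25.7% in siCtrl2, 22.1% in GFP ASO and 35.8% in siCtrl input. No length class above 60 bases had a larger middle share than 31 to 60 bases. Not every microexon length exceeded that share. In the same order, the middle class held 22.7%, 18.9% and 33.3% at 16 to 20 bases. At 28 to 30 bases it held 19.0%, 23.1% and 33.3%. The remaining microexon length classes were above 31 to 60 bases in every control.

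**Figure D1:**
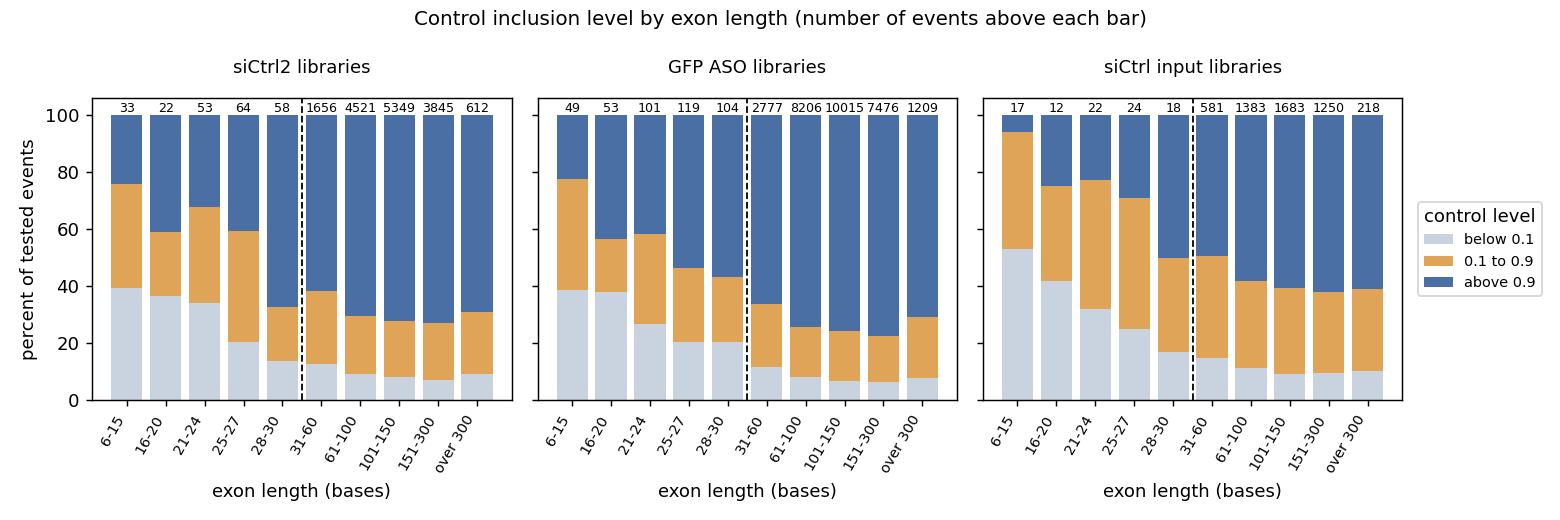
Share of tested skipped exon events (percent, vertical axis) with a control inclusion level below 0.1, between 0.1 and 0.9, or above 0.9, by exon length in bases (horizontal axis), for the siCtrl2, GFP ASO and siCtrl input libraries. The dashed line marks the limit of 30 bases, the number over each bar is its count of events, and the blue share above 0.9 is 24.2% at 6 to 15 bases and 67.2% at 28 to 30 bases in siCtrl2.

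The limit of 30 bases did not coincide with a step in the data. In siCtrl2 the median level was 0.990 over 10 events of 29 bases, 0.965 over 40 events of 30 bases, 0.997 over 16 events of 31 bases and 0.954 over 13 events of 32 bases. In GFP ASO the same lengths had 0.982, 0.928, 0.961 and 0.994. In siCtrl input they had 0.831, 0.920, 0.464 and 0.986, over 5, 12, 4 and 6 events. Control levels also differed by reading frame. Events with a length divisible by 3 had median control levels of 0.485, 0.560 and 0.331 in the 3 tables, and the remaining events 0.967, 0.967 and 0.807.

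The shortest exons ranged from never to partly used. HOOK2, a linker of cargo to microtubules, has an exon of 6 bases (chr19:12765829-12765834, minus strand) that was at 0 in all 3 GFP ASO libraries, on 77, 88 and 203 reads, and at 0, 0.0145 and 0.0524 in the U3 ASO libraries. MAP4K4, a kinase, has an exon of 9 bases (chr2:101868029-101868037, plus strand) at 0.183, 0.193 and 0.170 in GFP ASO and at 0.167, 0.169 and 0.164 in U3 ASO. In siCtrl2 it was at 0.214, 0.296 and 0.348 and in siFUBP1 at 0.260, 0.190 and 0.174. The MAP4K4 exon spread less in GFP ASO and U3 ASO, with a mean of 922 reads, than in siCtrl2 and siFUBP1, with 270. The part of depth in this was not tested. DNM2, the dynamin of endocytosis, has an exon of 12 bases at 0.302, 0.388 and 0.316 in GFP ASO and 0.235, 0.248 and 0.212 in U3 ASO, which did not overlap but gave an unadjusted p of 0.0698 and an adjusted p of 0.845 (quasi-binomial test, Benjamini-Hochberg over all events).

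The 72 microexons present in every table had a similar order of levels in the 3 controls, while the levels themselves differed. The control level was above 0.9 in all 3 controls for 13 of them, below 0.1 in all 3 for 15, and between 0.1 and 0.9 in at least 1 control for 44. Spearman's rho over these exons, given as a description of different libraries of the same cell line, was 0.948 between siCtrl2 and GFP ASO, 0.892 between siCtrl2 and siCtrl input, and 0.866 between GFP ASO and siCtrl input. The median level was 0.467, 0.619 and 0.399, in the order siCtrl2, GFP ASO and siCtrl input, and 12 exons spanned more than 0.3 between controls. Time after transfection, the transfected molecule and the kind of library differ between the controls and cannot be told apart. Among the exons with the most reads are those of HNRNPC (26 bases, chr14:21263311-21263336, minus strand), IL32 (27 bases, chr16:3067984-3068010, plus strand) and ACP1 (29 bases, chr2:272037-272065, plus strand). That of HNRNPC, an hnRNP protein, lies outside the coding sequence and was at 0.85, 0.821 and 0.792 in siCtrl2, at 0.734, 0.738 and 0.709 in GFP ASO and at 0.577 and 0.580 in siCtrl input. That of IL32, a cytokine, was at 0.919 or more in every control library, and that of ACP1, a phosphatase, was at 0.146 to 0.362 in all 8. CFI, the complement factor I protease made by liver, holds a pair of microexons that lie 152 bases apart on chromosome 4. The CFI exon of 21 bases was at 0.909 to 0.943 in all 8 control libraries and that of 24 bases at 0.0214 to 0.0917. So a nearly constant and a nearly silent microexon lay next to each other in this gene.

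**Figure D2:**
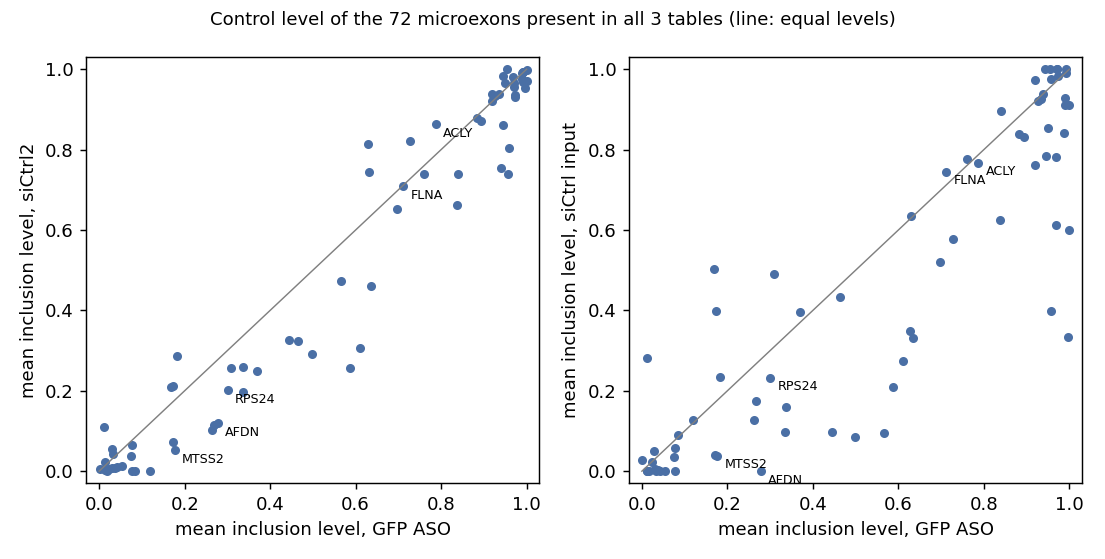
Mean control inclusion level of the 72 microexons present in all 3 tables, in GFP ASO (horizontal axis) against siCtrl2 (left) and siCtrl input (right), with each point an exon. Points lie along the line of equal levels, with rho of 0.948 on the left and 0.866 on the right, and more points fall below the line than above it in both panels.

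Depth and the identity of the cells set the precision of what follows. The tables held 2693397 to 4474350 junction reads per library for FUBP1 depletion, 11249641 to 13321799 for U3 depletion and 910779 to 1142189 for FBL depletion. The median microexon event had 50.8, 89.0 and 34.2 reads per library, against 60, 124.5 and 40 over all tested events. Counts of junction reads without molecular identifiers are not independent molecules. Among events with enough reads of both forms, the variance between libraries of a group was compared with that from counting alone. It was 4.08, 5.82 and 4.84 times as large (median Pearson dispersion of 59, 117 and 27 microexon events), against 5.01, 5.88 and 6.69 for longer events. Of 12 hepatocyte genes, 11, 11 and 10 had events, while neuron genes reached at most 0.943 reads per 1e+06 junction reads and blood genes had none. Of 4 fibroblast and stellate cell genes, 1 had events, in the U3 table only, with 19.9 to 29.9 reads per 1e+06 in GFP ASO and 53.5 to 68.2 under U3 ASO. Hepatocyte genes took 107188 to 115196 reads per 1e+06 after siFUBP1 against 108072 to 108823 in siCtrl2. They took 87683 to 89574 under U3 ASO against 127414 to 129282 in GFP ASO, and 191292 to 191744 in siFBL input against 173268 to 175770 in siCtrl input. Fewer cells of a kind and less RNA per cell cannot be told apart in such bulk libraries, and the part of these shifts in the results was not tested. Junctions of FUBP1 itself had 45.2 to 56.1 reads per 1e+06 in siCtrl2 and 4.08 to 10.1 in siFUBP1. Under U3 ASO they had 38.7 to 43.4, against 56.9 to 64.0 in GFP ASO. FBL had no event, so its depletion was not checked here.

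The comparison of siFUBP1 with siCtrl2 asked which microexons depend on FUBP1. Inclusion of the FLNA and PPP3CB exons fell and no microexon rose past the threshold, and the microexons whose libraries separated the groups all had lower levels after siFUBP1. Of 230 microexon events, 2 were called at an adjusted p under 0.1 (quasi-binomial test, Benjamini-Hochberg over 16213 events), both lower, where 0.197% of all tested events were called, 0.154% lower and 0.0432% higher. The groups did not overlap for 17 microexon events, and all 17 were lower in siFUBP1. Among all tested events 5.05% did not overlap, 3.1% lower and 1.96% higher, so that 7.39% of microexons stood against 3.1% on the lower side and 0 events against 1.96% on the higher side. An unadjusted p under 0.05 was found for 19 lower and 1 higher microexon events, 8.70% in all, where all tested events had 4.58%, with 2.81% lower and 1.77% higher. Leaving out 1 library gave 21 to 26 lower and 2 to 10 higher microexon events without overlap, with 26 lower and 10 higher without siFUBP1 library 1. Fewer libraries overlap less often: in these fits 9.13% to 11.3% of microexon events were lower against 4.55% to 6.46% of all tested events, and 0.870% to 4.35% higher against 3.34% to 4.66%. Without siFUBP1 library 1 the higher share of microexon events was 4.35% against 3.34% of all tested events. The median change over microexon events was -0.00551, against -0.00139 over all tested events.

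**Figure D3:**
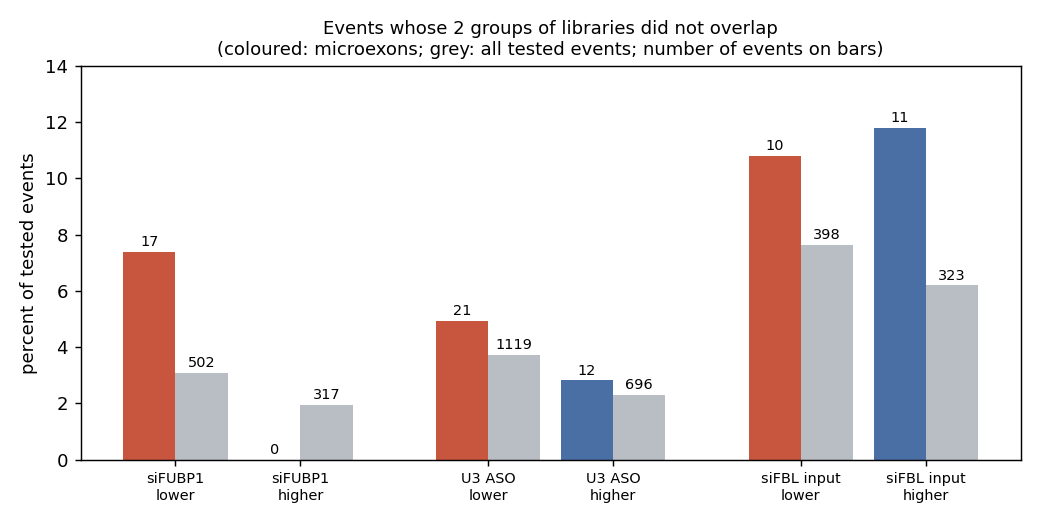
Percent of tested events whose depleted and control libraries did not overlap (vertical axis), lower or higher after each depletion, for microexons (coloured) and all tested events (grey), with the number of events on each bar. After siFUBP1 the microexon bar holds 17 lower and 0 higher events, under U3 ASO 21 and 12, and after siFBL 10 and 11.

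FLNA encodes filamin A, which crosslinks actin filaments. Its 24-base exon was at 0.691, 0.670 and 0.766 in siCtrl2 and at 0.321, 0.358 and 0.352 in siFUBP1, on 283 to 679 reads per library. Every siFUBP1 library lay well below every control, and inclusion fell from 0.709 ± 0.0502 to 0.344 ± 0.0201 (SD, n = 3 each), a change of -0.366 with an adjusted p of 2.39e-11 (quasi-binomial test with limma-moderated dispersion). The call held without any 1 library and was lost with limma on the log2 odds, where the adjusted p was 0.730 without and 0.423 with a variance trend. In the input libraries the FLNA exon was at 0.734 and 0.757 in siCtrl and at 0.625 and 0.639 in siFBL, lower without overlap but with an unadjusted p of 0.0989. Under U3 ASO it was at 0.638, 0.709 and 0.704 and overlapped GFP ASO at 0.702, 0.752 and 0.680.

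PPP3CB encodes a catalytic subunit of the calcium-dependent phosphatase calcineurin. Its 30-base exon was at 0.814, 0.882 and 1 in siCtrl2, on 25, 10 and 15 reads, and at 0, 0.0526 and 0 in siFUBP1, on 33, 32 and 20 reads. The exon thus went from mostly kept to almost never seen, a change of -0.881 with an adjusted p of 0.00383. This event rests on the fewest reads of the called microexons, but it was called under all forms of the test and without any 1 library. In the U3 table the PPP3CB exon was at 0.654, 0.897 and 0.588 in GFP ASO and at 1, 0.675 and 0.949 in U3 ASO, which overlapped. The siFBL table held no microexon event of PPP3CB that met the rule.

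**Figure D4:**
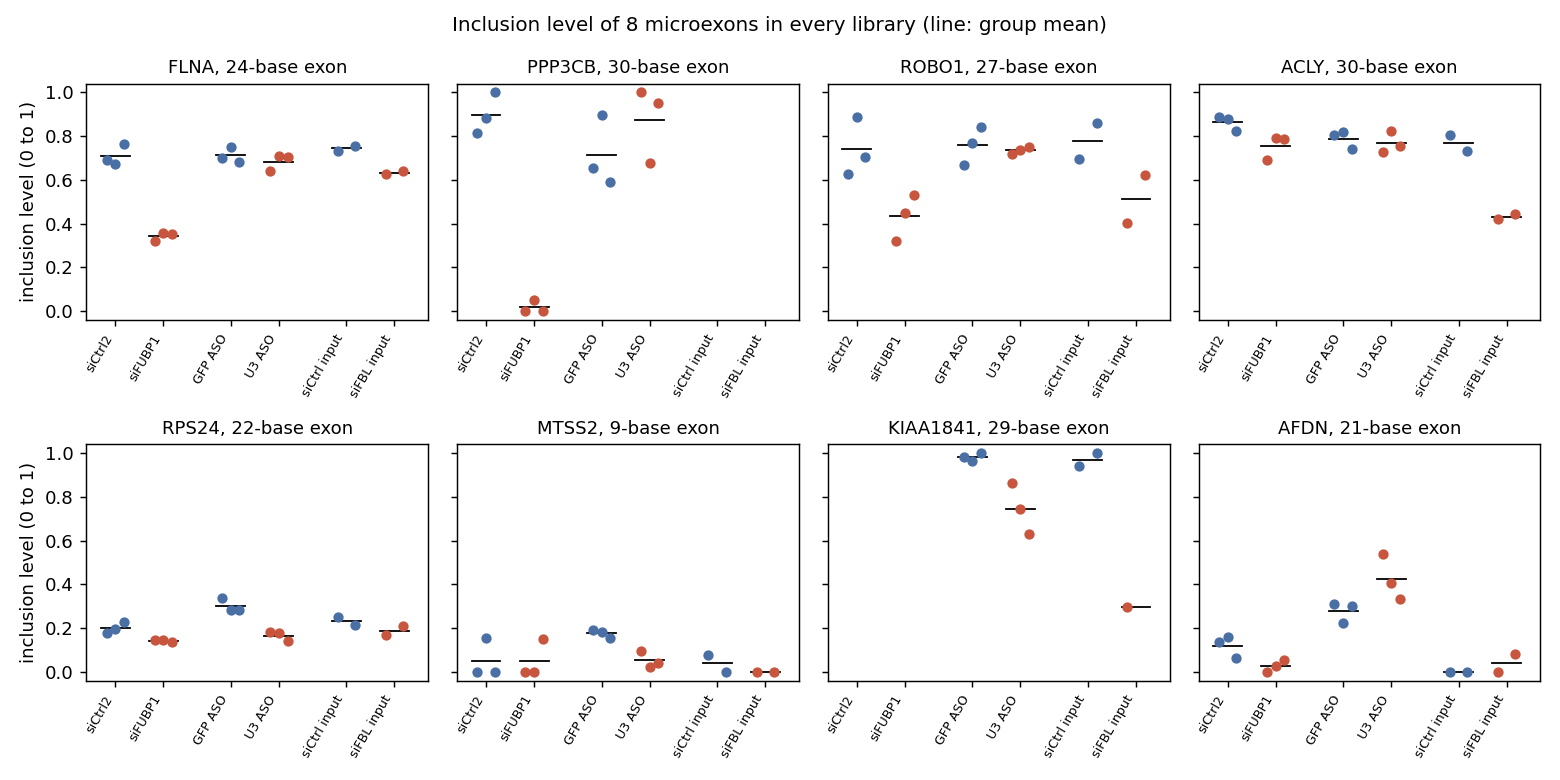
Inclusion level (0 to 1, vertical axis) of 8 microexons in every library with reads, by group (blue: control, red: depleted), with a line at each group mean. FLNA and PPP3CB drop after siFUBP1 to means of 0.344 and 0.0175, RPS24, MTSS2 and KIAA1841 are lower under U3 ASO, and ACLY is lowest in siFBL input. An empty column means that the exon met no event of the rule there.

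Further microexons separated the groups after siFUBP1 without passing the adjusted threshold. ROBO1, the receptor for SLIT guidance proteins, was at 0.629, 0.885 and 0.705 in siCtrl2 and at 0.320, 0.450 and 0.532 in siFUBP1 (unadjusted p = 0.000353, adjusted p = 0.142, quasi-binomial test). FERMT2, kindlin-2, which activates integrins, was at 0.152, 0.212 and 0.263 and then at 0, 0 and 0.0179 (adjusted p = 0.503). ZDHHC20, a palmitoyltransferase, was at 1 in all 3 siCtrl2 libraries and at 0.856, 0.739 and 0.959 in siFUBP1 (adjusted p = 0.489). These genes span a guidance receptor, an integrin activator and a membrane enzyme. ACOT9, a mitochondrial acyl-CoA thioesterase, was at 0.335, 0.263 and 0.276 and then at 0.103, 0.0946 and 0.101. ACLY, the enzyme that makes cytosolic acetyl-CoA from citrate, was at 0.888, 0.878 and 0.824 and then at 0.690, 0.789 and 0.788. TRAPPC9, part of a vesicle tethering complex, was at 0.670, 0.566 and 0.137 and then at 0.0957, 0 and 0 on as few as 3 reads. ACOT9, ACLY and TRAPPC9 all had an adjusted p of 0.812, as did AFDN and PHACTR4. AFDN, which ties cell adhesion to actin, was at 0.136, 0.161 and 0.0632 and then at 0, 0.0244 and 0.0532. PHACTR4, a regulator of protein phosphatase 1 and actin, was at 0.394, 0.256 and 0.329 and then at 0.0711, 0.211 and 0.0920. These exons lie in ZDHHC20 (27 bases, chr13:21425652-21425678, minus strand), ACOT9 (27 bases, chrX:23734341-23734367, minus strand) and PHACTR4 (24 bases, chr1:28457832-28457855, plus strand), and that of TRAPPC9 has 27 bases. Of the 17 exons without overlap, 16 had a length divisible by 3 against 164 of all 218, and T made up a median of 46% of their last 50 intron bases against 42% over all 218. Under U3 ASO this median was 44% for exons lower and 36% for exons higher without overlap. After siFBL it was 35% and 46%, again with 42% over all microexons of each comparison. Control levels differed by reading frame, as given above, and the part of this in the count of 16 was not tested.

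The mean inclusion level over the 223 microexon events with reads in every library was 0.565, 0.588 and 0.583 in siCtrl2 and 0.551, 0.540 and 0.553 in siFUBP1. The groups did not overlap, and the mean went from 0.579 ± 0.0121 to 0.548 ± 0.00701 (SD, n = 3 each), lower by 0.0306. Over 15651 longer events it went from 0.831 ± 0.00101 to 0.826 ± 0.00146, a difference of -0.00497. The microexon difference was greatest among partly used exons, and the median change over events was only -0.00598. Depleted libraries enter the level classes too, so an exon that fell far, such as that of PPP3CB, counts as partly used. Levels near 0 or 1 also leave little room for change, so no conclusion is drawn from this order. For 77 microexon events with a mean level of 0.1 to 0.9 over all libraries, the mean went from 0.502 ± 0.0392 to 0.417 ± 0.0280, and 10 of them were lower without overlap and 0 higher. For 3099 longer events of the same level, the mean went from 0.643 ± 0.00147 to 0.626 ± 0.00314, and 8.10% were lower and 4.94% higher without overlap. For microexons below 0.1 the difference was 0.00602 and above 0.9 it was -0.00620, and both overlapped between groups. Longer events had the same order, with -0.0170 between 0.1 and 0.9, -0.000775 below 0.1 and -0.00215 above 0.9. Without the 2 called exons the mean difference over all microexons was -0.0252. The skipping share is the percentage of skipping among junction reads pooled over events, so exons with many reads weigh most. It went from 30.2 ± 0.826% to 32.4 ± 0.903% for microexons without overlap, and from 6.57 ± 0.0400% to 6.67 ± 0.0889% for longer events with overlap. FLNA alone gave 103, 161 and 59 skipping reads of 21513, 33965 and 22077 microexon reads in siCtrl2. In siFUBP1 it gave 427, 412 and 362 of 24144, 22531 and 18387. Taking the FLNA reads of both forms out puts siCtrl2 library 3 above siFUBP1 library 1. The lack of overlap in the skipping share of microexons thus depends on this exon.

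**Figure D5:**
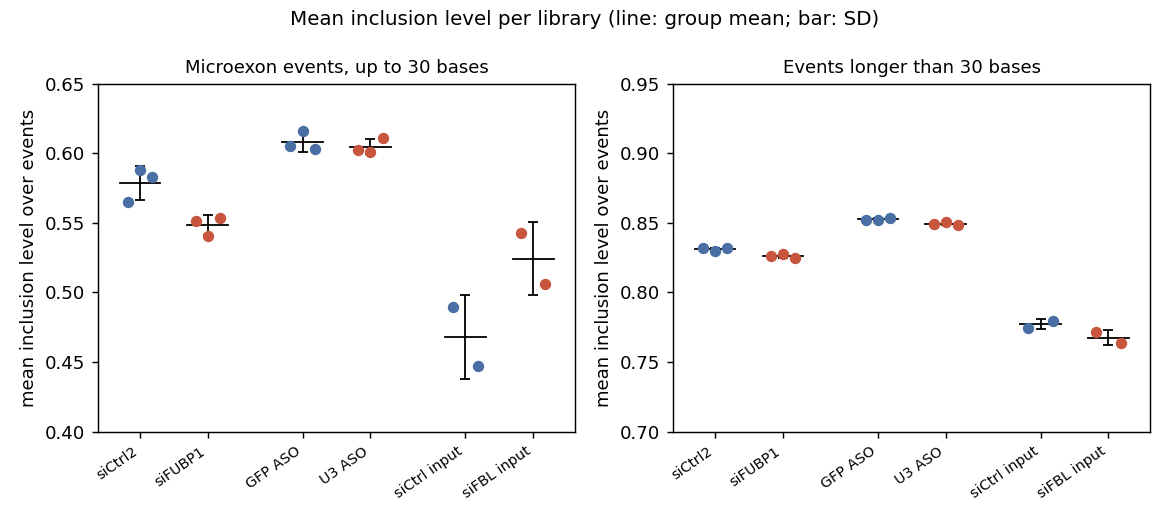
Mean inclusion level per library over microexon events (left) and over longer events (right), by group (blue: control, red: depleted; line: group mean; bar: SD). The 2 vertical axes span the same width from different starts: microexons lie between 0.447 and 0.616 and longer events between 0.764 and 0.853.

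The comparison of U3 ASO with GFP ASO asked whether loss of U3 changes the same kind of exon. MTSS2, RPS24 and KIAA1841 fell, and no microexon rose past the threshold. Of 426 microexon events, 3 were called, all lower, where 0.226% of 30109 tested events were called, 0.106% lower and 0.12% higher. The groups did not overlap for 33 microexon events, or 7.75%, of which 21 were lower and 12 higher. Among all tested events 6.03% did not overlap, with 3.72% lower and 2.31% higher. An unadjusted p under 0.05 was found for 15 lower and 11 higher microexon events, or 6.10%, where all tested events had 4.13%, with 1.96% lower and 2.18% higher. The mean level over 411 microexon events was 0.605, 0.616 and 0.603 in GFP ASO and 0.602, 0.601 and 0.611 in U3 ASO. These overlapped, with a difference of -0.00347 against -0.00320 for longer events, and it was 0.000736 without GFP ASO library 2. The median change was -0.00391 for microexon events and -0.00355 for all tested events. By skipping share, microexons went from 28 ± 0.246% to 29.9 ± 0.417% (SD, n = 3 each) and longer events from 4.98 ± 0.0569% to 5.58 ± 0.0501%, both without overlap.

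MTSS2 encodes a protein that binds actin and curves membranes. Its 9-base exon was at 0.191, 0.183 and 0.156 in GFP ASO and at 0.0942, 0.0238 and 0.0415 in U3 ASO, on 726 to 1350 reads. All U3 ASO libraries were below all controls, with a change of -0.123 and an adjusted p of 6.87e-07 that stayed past the threshold without any 1 library. With limma on the log2 odds the adjusted p was 0.784 without and 0.191 with a variance trend. In the siFUBP1 table the MTSS2 exon was at 0, 0.155 and 0 in siCtrl2 and at 0, 0 and 0.151 in siFUBP1, on 202 to 375 reads, so libraries of a group differed there by as much as the groups did under U3 ASO. In siCtrl input it was at 0.0780 and 0, and in siFBL input at 0 in both libraries.

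RPS24 encodes a protein of the small ribosomal subunit. Its 22-base exon was at 0.337, 0.282 and 0.282 in GFP ASO and at 0.180, 0.177 and 0.139 in U3 ASO, on 620 to 1249 reads. Inclusion fell by 0.135 with an adjusted p of 0.00101, and the call was lost without U3 ASO library 3 (adjusted p = 0.380) and with limma on the log2 odds (0.867 without and 0.887 with a variance trend). The RPS24 exon was at 0.179, 0.197 and 0.227 in siCtrl2 and 0.143, 0.143 and 0.137 in siFUBP1 (adjusted p = 0.812). It was at 0.252 and 0.213 in siCtrl input and 0.166 and 0.209 in siFBL input (adjusted p = 0.875). RPS24 was thus the only 1 of the 72 shared microexons whose depleted libraries were all below the controls in every table, although the margin in the input libraries was 0.213 to 0.209. Ribosomal protein genes have processed copies in the genome that share exon sequence, and how reads were divided among such copies is not given in the sources used here.

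KIAA1841 had its 29-base exon at 0.980, 0.966 and 1 in GFP ASO and at 0.862, 0.744 and 0.632 in U3 ASO. The change was -0.236 with an adjusted p of 0.0916. Of the fits that leave out a library, only that without U3 ASO library 1 kept the call, and the adjusted p in the others ranged from 0.233 (without GFP ASO library 1) through 0.252, 0.297 and 0.451 (without GFP ASO library 2, U3 ASO library 2 and GFP ASO library 3) to 0.955 (without U3 ASO library 3). In siCtrl input the exon was at 0.941 and 1, and in siFBL input at 0.295 on 9 reads in the library that had any.

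Other microexons separated the groups under U3 ASO in both directions. MAX, the partner of MYC, was at 0.576, 0.538 and 0.646 in GFP ASO and at 0.439, 0.376 and 0.267 in U3 ASO (unadjusted p = 0.00152, adjusted p = 0.368, quasi-binomial test). CUTC, a protein of copper handling, was at 0.751, 1 and 0.942 and then at 0.668, 0.707 and 0.292. MRPL33, of the mitochondrial ribosome, was at 1 in all GFP ASO libraries and then at 0.983, 0.891 and 0.877. R3HDM2 was at 0.473, 0.525 and 0.594 and then at 0.312, 0.126 and 0.322. These 4 were lower. MARK2, a kinase of cell polarity, was higher, at 0.0210, 0 and 0 in GFP ASO and 0.0321, 0.0814 and 0.106 in U3 ASO. MYO18A, an unconventional myosin, was at 0, 0.0681 and 0 and then at 0.108, 1 and 0.609 on 11 to 33 reads, at an exon that no GENCODE transcript holds. NKTR, a cyclophilin-related protein, was at 0, 0.0447 and 0.107 and then at 0.351, 0.380 and 0.541. The exons of MARK2, MYO18A and NKTR were rarely used in control cells, and CUTC, MARK2, MRPL33, R3HDM2, MYO18A and NKTR had adjusted p-values from 0.772 to 0.845. The exons lie in MAX (27 bases, chr14:65101546-65101572, minus strand), CUTC (28 bases, chr10:99750369-99750396, plus strand), MRPL33 (19 bases, chr2:27772674-27772692, plus strand), R3HDM2 (24 bases, chr12:57305640-57305663, minus strand), MARK2 (27 bases, chr11:63906088-63906114, plus strand), MYO18A (21 bases, chr17:29117690-29117710, minus strand) and NKTR (28 bases, chr3:42627200-42627227, plus strand). AFDN was higher under U3 ASO, at 0.540, 0.407 and 0.331 against 0.308, 0.223 and 0.303 in GFP ASO, where it was lower after siFUBP1. Whether this difference between tables exceeds their spread was not tested.

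The comparison of siFBL input with siCtrl input asked whether loss of the methyltransferase changes microexons, at the lowest depth. No microexon event of 93 was called by the quasi-binomial test, where 0.0% of 5208 tested events were called. With limma on the log2 odds the count of microexons was also 0, with and without a variance trend, and 4 microexon events had an unadjusted p under 0.05, 2 lower and 2 higher. These were 4.3% of microexons, where all tested events had 2.25%, with 1.5% lower and 0.749% higher. The groups of 2 libraries did not overlap for 21 microexon events, 10 lower and 11 higher, or 22.6% where all tested events had 13.8%, with 7.64% lower and 6.2% higher. The mean level over 86 microexon events was 0.489 and 0.447 in siCtrl input and 0.543 and 0.506 in siFBL input, higher by 0.0562, while longer events were lower by 0.00961. The rise was sensitive to events with few reads: over the 69 events with a mean of at least 20 reads the libraries had 0.530 and 0.488 against 0.533 and 0.512, which overlapped, and the difference was 0.0134. The median change over the events was 0.0210. The skipping share of microexon reads had a value of 41.5 ± 0.611% for siCtrl input and 41.6 ± 0.0730% for siFBL input (SD, with 2 libraries a group).

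ACLY was the microexon with the smallest p in the input libraries. Its 30-base exon was at 0.803 and 0.732 in siCtrl input and at 0.420 and 0.445 in siFBL input, on 102 to 118 reads. The change of -0.335 had an unadjusted p of 0.00889 and an adjusted p of 0.875. Under U3 ASO the ACLY exon was at 0.729, 0.822 and 0.754 and overlapped GFP ASO at 0.803, 0.817 and 0.741. SNRPG, of the Sm core of spliceosomal particles, was at 0.957 and 0.990 in siCtrl input and at 0.794 and 0.734 in siFBL input, and it overlapped between groups in the other tables. PHACTR4 was higher after siFBL, at 0.805 and 0.287 against 0.0201 and 0.177. LMO7 was at 0.500 and 0.200 and then at 0.662 and 0.948, and CLASP1, a microtubule plus-end protein, at 0.568 and 0.223 and then at 0 and 0.0758. AXL, a receptor tyrosine kinase, was at 0 in both controls, on 10 and 16 reads, and at 1 in both siFBL libraries, on 3 and 14 reads. CADPS2, a protein of vesicle release, went from 0.189 and 0 to 0.845 and 1 on as few as 1 read. The exons lie in SNRPG (23 bases, chr2:70289350-70289372, minus strand), LMO7 (30 bases, chr13:75809154-75809183, plus strand), CLASP1 (24 bases, chr2:121409024-121409047, minus strand), AXL (27 bases, chr19:41239694-41239720, plus strand) and CADPS2 (15 bases, chr7:122386295-122386309, minus strand). All of these had an adjusted p of 0.875, and for AXL and CADPS2 the reads were too few to give a level.

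The lists of host genes by function were chosen with earlier results known and differ in size, so their counts do not rank functions. The list of the actin and spectrin cytoskeleton and adhesion held the most microexon events. Its 53 genes had 22, 31 and 14 microexon events in the tables of FUBP1, U3 and FBL depletion, and 1 of these, FLNA after siFUBP1, was called, while 2, 2 and 0 had an unadjusted p under 0.05 and 3, 3 and 4 did not overlap. The median change of these events was -0.0112, 0.00284 and 0.0116, against -0.00551, -0.00391 and 0.0247 over all microexon events. Membrane traffic, with 51 genes, held 12, 10 and 6 events and 0 called, with 1, 1 and 0 at an unadjusted p under 0.05 and 1, 4 and 0 without overlap. Transcription and chromatin held 0, 2 and 0 events and RNA processing and translation 1, 0 and 0, out of 22 genes each and with 0 called and 0 at an unadjusted p under 0.05, while 1 of the 2 events of transcription and chromatin under U3 ASO did not overlap. Over all tested events 4.58%, 4.13% and 2.25% had an unadjusted p under 0.05 and 5.05%, 6.03% and 13.8% did not overlap, in the order of the tables. RPS24 was in none of these lists.

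Exons of genes known to regulate microexons or 3′ splice sites were read at any length. These 29 genes had 53, 95 and 32 tested events, of which 0, 2 and 0 were called. Their unadjusted p was under 0.05 for 6, 9 and 3 of them, and 5, 9 and 9 did not overlap. Over all tested events 0.197%, 0.226% and 0.0% were called, and the shares at an unadjusted p under 0.05 and without overlap were those given for the host gene lists. SRRM1, a coactivator of splicing, rose at a 130-base exon (chr1:24647079-24647208, plus strand) from 0.0266, 0.0935 and 0.114 in GFP ASO to 0.277, 0.273 and 0.282 in U3 ASO (adjusted p = 0.000492, quasi-binomial test). SF1, which binds the branch point, fell at a 76-base exon (chr11:64773430-64773505, minus strand) from 0.975, 0.979 and 0.996 to 0.955, 0.939 and 0.906 (adjusted p = 0.0916). The U3 ASO libraries lay apart from GFP ASO at both exons. After siFUBP1 the smallest p in this list belonged to RNPS1, a splicing activator, whose 188-base exon was at 0.922, 0.894 and 0.903 in siCtrl2 and at 0.739, 0.776 and 0.736 in siFUBP1 (adjusted p = 0.657). The same RNPS1 exon lay the other way in the input libraries, at 0.302 and 0.373 in siCtrl and at 0.629 and 1 in siFBL (unadjusted p = 0.0383, adjusted p = 0.875), from a control level far below that in siCtrl2.

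Side by side, microexons present in every table gave no common direction. Of the 72, the change was below 0 for 44 after siFUBP1, 44 under U3 ASO and 31 after siFBL, with 13 lower and 10 higher in all 3 tables. Their median change was -0.00568, -0.00669 and 0.0323. For FLNA the change was -0.366, -0.0279 and -0.113 in the tables of FUBP1, U3 and FBL depletion, for RPS24 -0.0598, -0.135 and -0.0446, for ACLY -0.108, -0.0186 and -0.335, and for ROBO1 -0.306, -0.0247 and -0.265. FLNA, ACLY and ROBO1 were thus lower without overlap after siFUBP1 and after siFBL and overlapped under U3 ASO. They and RPS24 were 4 of 7 shared exons without overlap after both siFUBP1 and siFBL, and the other 3 lay in opposite directions. For these the change after siFUBP1 and after siFBL was -0.202 and 0.447 at PHACTR4 (24 bases), -0.0402 and 0.0463 at CFI (21 bases), and -0.101 and 0.260 at BAZ2B (27 bases), which was named after its values were seen. Differences between tables were not tested.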

How the data were processed

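RNA of HepG2 cells was sequenced in 20 libraries, and the 16 that entered the 3 splicing tables were used. Reads had been trimmed with Cutadapt and aligned to hg38 with HISAT2 by the authors, who counted skipped exon events with rMATS from junction reads; versions and annotation are not given in the sources used here. The values the authors deposited are lists of whole-number junction read counts, 1 per library and form, without library numbers, so a library is named by its place in the list. P-values, FDRs and inclusion differences of the authors' own comparisons, the immunoprecipitation table and 6 columns of inclusion levels per library were not used.

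Inclusion reads were divided by the number of read positions listed for the inclusion form, which for a microexon is 149 plus its length. Skipping reads were divided by 149 positions. Each event with a mean of at least 10 reads per library was tested by a quasi-binomial model on inclusion and skipping reads, and its dispersion was shrunk toward that of other events with limma 3.58.1 in R 4.3.3 (squeezeVar; prior from events with information of at least 5, the reads per library times the shares of both forms). P-values of the F test were adjusted over all tested events of a table (Benjamini-Hochberg), and an adjusted p under 0.1 was called. In the alternative with limma on the log2 odds, 0.5 was added to each count. Annotation was GENCODE release 44 and sequence hg38.

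Members, gene lists and tests were chosen with earlier results of these data known. Named exons were, with 1 event per exon, all called ones, up to 8 more per table with the smallest p among those without overlap and a change of at least 0.05, up to 10 shared exons with the most reads and a control level of 0.05 to 0.95, and the 3 shortest with at least 50 reads per library under U3 or GFP ASO. Alternatives changed the test, the read minimum, the length limit, the events per exon, the threshold and the libraries.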

Additional observations from a re-analysis of the deposited data

How the results depend on the processing

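No paired analysis was possible because the positions in the deposited lists carry no replicate number. The count of called microexons after siFUBP1 was 2, and it was 1 with limma on the log2 odds without a variance trend, 4 with a variance trend and 1 with a length limit of 27 bases. Under U3 ASO it was 3, and it was 0 and 9 with limma without and with a variance trend. The calls with a variance trend were largely other exons, with PPP3CB of FLNA and PPP3CB and KIAA1841 of the 3 under U3 ASO among them. Leaving out each library gave 2 to 2 calls after siFUBP1, 1 to 3 under U3 ASO and 0 to 0 after siFBL. For siFBL the count was 0 under every alternative run. The mean microexon difference after siFUBP1 was -0.0306, with -0.0381 to -0.0251 without 1 library, -0.0221 with at least 20 reads and -0.0227 with a length limit of 27 bases. As a median over events, chosen after seeing the data, it was -0.00598. Under U3 ASO it was -0.00347, with -0.00597 to 0.000736 without 1 library. After siFBL it was 0.0562, with 0.0423 to 0.0774 without 1 library, 0.0134 with at least 20 reads and 0.0210 as a median over events. Robust moderation of the dispersion, added after seeing the data, gave 2, 3 and 0 calls. The read positions of an inclusion form, few for a microexon, depend on how the aligner placed short exon pieces, which was not tested.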
